A study of Mus musculus with 9 samples.

Results

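The 9 genes described here, Tbx2, Tbx3, Tbx5, Vax2, Aldh1a1, Aldh1a3, Cyp26a1, Efnb2 and Ephb2, pattern the mouse retina along its dorsoventral axis. They were taken by symbol from 55487 genes measured by RNA-seq in whole retinas at postnatal day 21 (P21), and each symbol matched 1 row. All 9 passed the filter on low values that left 21330 genes for testing. Total RNA was sequenced from C57 BL/6J mice of 3 genotypes, with 3 libraries per genotype and the retinas of 2 animals pooled in each library. Cre- retinas, labelled WT, carried no Cre transgene. Triple heterozygous retinas (tHet) carried 1 floxed allele each of Tet1, Tet2 and Tet3 together with Chx10::Cre-GFP, and Tet tcKO retinas were homozygous for all 3 floxed alleles with the same Cre. TET enzymes oxidise 5-methylcytosine in DNA, and the study asked what their loss from retinal progenitors does to retinal development. The Chx10::Cre-GFP transgene acts in retinal progenitors and is known to be mosaic, so a Tet tcKO retina may keep cells that did not recombine. The authors bred Cre-positive animals together to reduce this mosaicism. tHet and Tet tcKO animals came from Cre-positive in-crosses and Cre- animals from Cre-negative breeders, so the presence of Cre and the breeding line cannot be told apart in a comparison with Cre-.

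During eye development the dorsal retina expresses the T-box factors Tbx2, Tbx3 and Tbx5 downstream of BMP4, and the ventral retina expresses the homeobox factor Vax2. These factors set up a second layer of regional genes. Retinoic acid is made dorsally by the retinaldehyde dehydrogenase ALDH1A1 and ventrally by ALDH1A3, and is degraded in the stripe between them by the cytochrome P450 enzyme CYP26A1. Ephrin-B2 marks the dorsal retina and its receptor EphB2 the ventral retina, which helps ganglion cell axons find their place in the brain. In the adult mouse the axis is visible in the cones, since short wave opsin (Opn1sw) prevails ventrally and medium wave opsin (Opn1mw) dorsally. A whole-retina library mixes dorsal and ventral retina, so it holds the level of each gene but not its position. In such bulk samples more cells of a type and more RNA per cell cannot be told apart.

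Cyp26a1 and Aldh1a3 rose in the Tet tcKO retina against Cre-, and no member fell. Cyp26a1 rose against tHet as well, by a similar amount. Aldh1a1, Efnb2 and Ephb2 stood higher in all 3 Tet tcKO libraries than in all 3 Cre- libraries, by 1.80-fold to 2.06-fold, and missed the threshold for a call. None of the 4 transcription factors passed the test in any comparison. Beside these genes, Opn1sw rose and Opn1mw did not pass the test. A gene was called when its log2 fold change (log2FC) was at least 1 in size and its adjusted p was under 0.01, from limma with Benjamini-Hochberg adjustment over all 21330 genes. The fold changes are on the scale of log2(CPM + 0.5), where CPM is the read count per 1000000 reads on genes, and this scale understates the change of genes near 0.

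RefSeq (build GRCm38.p6) promoters of 300 bases, from 250 before to 50 after the start, were at hand for 4 of the 9 members and for both opsins. Cyp26a1 is shown first because it was called in both Tet tcKO comparisons. Capitals mark a direct repeat of the half-site AGTTCA with 5 bases between, read on the opposite strand as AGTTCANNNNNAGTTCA, the layout of a retinoic acid response element. Efnb2 and Aldh1a1 follow as the CpG-richest and CpG-poorest member promoters, with every CpG in capitals, since CpG is the site that TET enzymes act on.
Cyp26a1 (chr19:37697558-37697857, + strand): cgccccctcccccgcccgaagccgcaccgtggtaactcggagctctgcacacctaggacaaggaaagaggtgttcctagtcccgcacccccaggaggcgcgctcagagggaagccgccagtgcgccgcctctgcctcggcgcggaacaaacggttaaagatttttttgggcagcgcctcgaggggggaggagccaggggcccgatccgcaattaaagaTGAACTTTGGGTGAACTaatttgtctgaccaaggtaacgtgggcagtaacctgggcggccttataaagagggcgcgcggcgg
Efnb2 (chr8:8661193-8661492, - strand): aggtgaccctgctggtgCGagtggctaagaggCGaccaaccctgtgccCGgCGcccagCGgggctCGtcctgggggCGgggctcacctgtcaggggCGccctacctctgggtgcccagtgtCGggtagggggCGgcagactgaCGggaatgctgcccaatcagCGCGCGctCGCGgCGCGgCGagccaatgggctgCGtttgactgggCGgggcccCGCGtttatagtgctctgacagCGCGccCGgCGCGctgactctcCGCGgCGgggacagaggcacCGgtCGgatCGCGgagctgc
Aldh1a1, downstream start (chr19:20601718-20602017, + strand): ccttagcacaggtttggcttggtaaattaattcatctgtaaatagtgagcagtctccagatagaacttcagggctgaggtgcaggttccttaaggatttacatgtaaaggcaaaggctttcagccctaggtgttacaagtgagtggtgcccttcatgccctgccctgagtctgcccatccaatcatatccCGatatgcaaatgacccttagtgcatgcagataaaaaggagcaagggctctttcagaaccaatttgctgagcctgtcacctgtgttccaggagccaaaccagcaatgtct

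The repeat in Cyp26a1 lies 32 to 16 bases before the start. The 4 arrangements of the half-sites AGGTCA and AGTTCA with a spacer of 5 bases, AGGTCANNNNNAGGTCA, AGGTCANNNNNAGTTCA, AGTTCANNNNNAGGTCA and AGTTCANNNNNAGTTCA, were searched on both strands of 32851 promoters. They do not overlap in the Cyp26a1 promoter, which holds 1 match. Any of the 4 was present in 13 promoters (0.0396%), and the arrangement found in Cyp26a1 in 8 (0.0244%). No match was found in the promoters of Aldh1a1, Efnb2, Ephb2, Opn1sw or Opn1mw, which says only that these letters are not in those windows. CpG number differed widely between the members that stood higher in Tet tcKO. The Efnb2 promoter had 35 CpG, more than in 93.0% of all promoters. Cyp26a1 had 26 and Ephb2 had 24. Aldh1a1 had 3 at its upstream start and 1 at its downstream start, and neither opsin promoter had any, against a median of 7 over all promoters. DNA methylation was not measured in these RNA libraries. The paper profiled it in matched DNA from the same extractions, and those data were not used here.

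The members were spread over chromosomes 4, 5, 6, 7, 8, 11 and 19 of mm10 (GRCm38), with positions from GENCODE M21. Tbx3 (chromosome 5, 119670669 to 119684724) and Tbx5 (chromosome 5, 119832668 to 119885219) are neighbours on the + strand. Aldh1a1 (chromosome 19, 20492715 to 20643465) and Cyp26a1 (chromosome 19, 37697798 to 37701536) share a chromosome and lie far apart on it. Aldh1a3 lies on the - strand of chromosome 7 from 66390890 to 66427517. Exons of Tbx3 overlap those of the antisense gene Tbx3os1, and exons of Opn1sw overlap those of Calu on the other strand. The kit kept strand information, but the strand setting of the counting is not given in the sources used here, so reads of these 2 pairs may be mixed.

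The libraries held 9627927 to 21108256 reads on genes. The ribosomal RNA gene CT010467.1 took 28.72% of Tet tcKO replicate 3, 3.72% of tHet replicate 3 and at most 0.23% of the others, so the CPM of every other gene is lowered in Tet tcKO replicate 3. The labelled tissue was checked by its markers: summed CPM of 6 rod markers was 25380 to 31200 in Cre- retinas, 22010 to 27390 in tHet retinas and 1865 to 8160 in Tet tcKO retinas. Of the 6, 5 fell against Cre-, where 1.57% of all genes did. Reads over the whole Tet3 gene were 99.2 to 152 CPM in Tet tcKO against 213 to 268 in Cre-, a log2FC of -0.99 (SE 0.25, adjusted p = 0.0174 by limma). Tet1 (51.0 to 74.9 CPM in Tet tcKO, 51.7 to 57.6 in Cre-) and Tet2 (152 to 221, and 113 to 188) overlapped between genotypes. Whole-gene counts include exons outside the floxed part, so they do not measure recombination. The paper assessed it from reads spliced into the floxed exons, and reports a stepwise decrease from Cre- through tHet to Tet tcKO.

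Per kilobase of exon, Aldh1a1 and Tbx2 were the most abundant members in Cre- retinas and Aldh1a3 the least. Aldh1a1 stood at 14.0 ± 3.48 CPM per kb (SD, n = 3) and Tbx2 at 13.4 ± 1.89, which did not differ beyond their spread. Vax2 followed at 7.89 ± 1.04, Efnb2 at 6.53 ± 0.633 and Ephb2 at 3.00 ± 0.106. Tbx3 at 2.34 ± 0.178 and Tbx5 at 2.17 ± 0.436 were again within their spread of each other. Cyp26a1 stood at 1.15 ± 0.506 and Aldh1a3 at 0.0757 ± 0.0633. In Tet tcKO, Efnb2 at 11.9 ± 1.80 CPM per kb stood above Tbx2 at 8.82 ± 2.34, and Cyp26a1 at 6.02 ± 0.658 came within the spread of Vax2 at 6.10 ± 2.44. Aldh1a1 remained the highest at 28.9 ± 8.03, and Aldh1a3 the lowest at 0.773 ± 0.150.

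**Figure D1:**
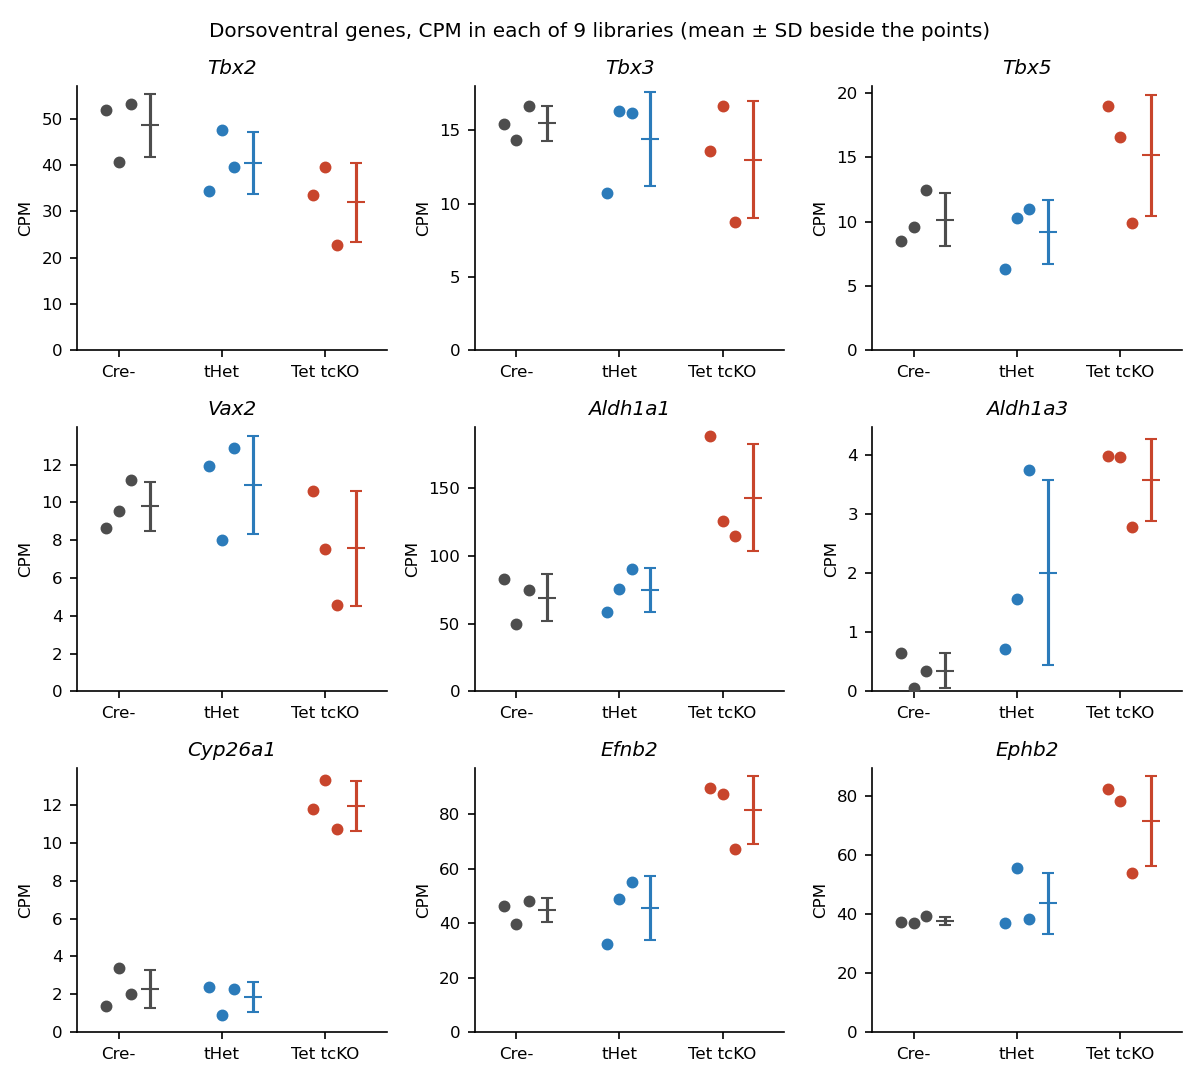
Each panel plots 1 member, with CPM on the vertical axis from 0 and 1 point per library in Cre- (grey), tHet (blue) and Tet tcKO (red); the bar beside the points is the mean ± SD of 3 libraries. The Tet tcKO points of Cyp26a1, at 10.7 to 13.3 CPM, sit apart from the other 6 libraries, at 0.935 to 3.37, while those of Tbx3 and Vax2 overlap both other genotypes.

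Of the 9 members, 2 were called against Cre-, both higher, while 768 of all 21330 genes were called (3.60%), 434 higher (2.03%) and 334 lower (1.57%). With CPM recomputed without CT010467.1, 5 members were called against a background of 3.88%. That scaling moved the median log2FC of all genes from 0.001 to 0.14 and the split of calls to 613 higher and 222 lower. Without Tet tcKO replicate 1, 1 member was called, where 1.57% of all genes were. At an adjusted p under 0.05 and any fold, 5 members passed, where 6.50% of all genes did. In 5 members all Tet tcKO libraries lay above all Cre- libraries (10.0% of all genes) and in 1, Tbx2, all lay below (9.60%). The members' median log2FC was 0.85, beside 0.001 over all genes tested.

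Against tHet, 1 member was called, beside 640 genes in all (3.00%), 297 higher (1.39%) and 343 lower (1.61%). Without CT010467.1 it was 2 members, Cyp26a1 and Efnb2 (background 2.98%), with 427 genes higher and 215 lower. Without tHet replicate 3 it was 3 members, Aldh1a1, Cyp26a1 and Efnb2, beside 4.61% of all genes. At an adjusted p under 0.05, 3 members passed (background 5.95%). All Tet tcKO libraries lay above all tHet libraries for 3 members (7.35% of all genes) and below for none (9.68%). The median log2FC was 0.70 for the members and -0.06 for all genes. These 2 comparisons share the Tet tcKO libraries, so their values stand side by side and do not support each other.

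Between tHet and Cre-, no member was called by limma, and 9 of 21330 genes were (0.0422%). No member reached an adjusted p under 0.05 (0.0938% of all genes did), and 1 member, Aldh1a3, had an unadjusted p under 0.05. The edgeR and DESeq2 fits on the recovered reads called no member here either. Aldh1a3 was also the member whose tHet libraries all lay above the Cre- libraries (5.78% of all genes), and none had all libraries below (5.37%). The median log2FC was -0.01 for the members and 0.06 for all genes.

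**Figure D2:**
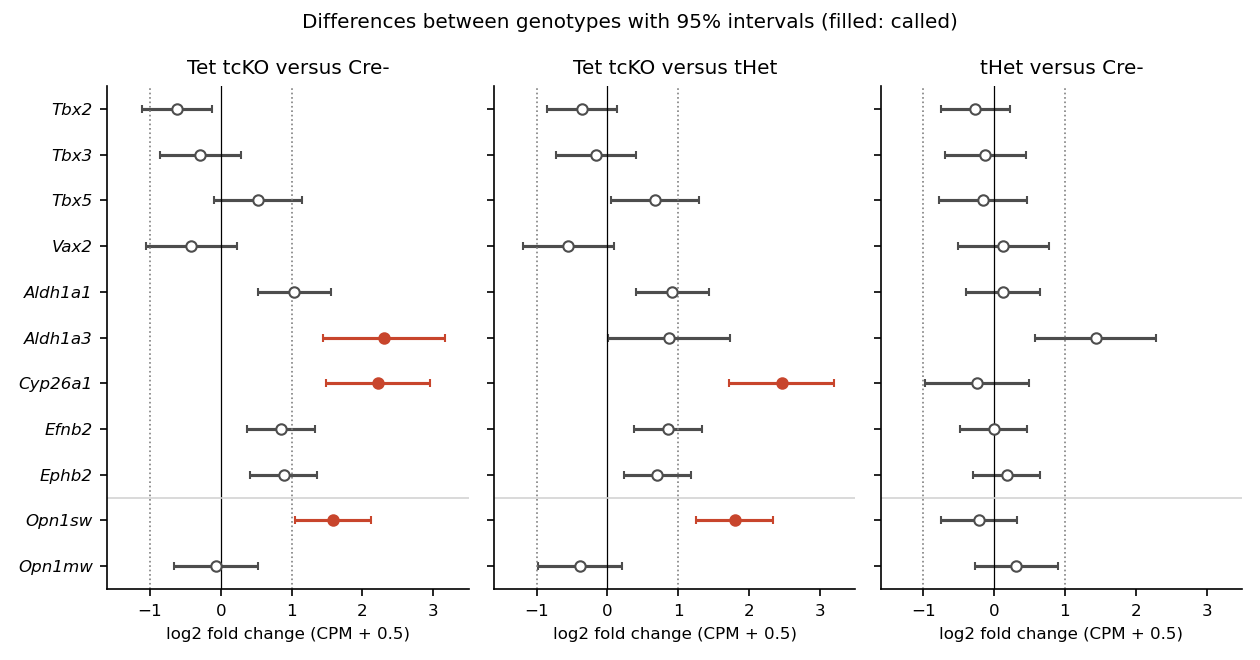
Horizontal axis: log2 fold change of CPM + 0.5, with 95% intervals from limma, in 3 panels for the 3 comparisons; rows are the 9 members and, under the line, both cone opsins. Filled red points were called and dotted lines mark a log2FC of 1 in size; Cyp26a1 and Opn1sw are filled in both Tet tcKO panels, and Aldh1a3 against Cre- alone.

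None of the dorsal T-box factors passed the test. Tbx2, a transcriptional repressor, stood at 51.8, 40.7 and 53.3 CPM in the Cre- libraries, 34.4, 47.6 and 39.6 in the tHet libraries and 33.6, 39.5 and 22.8 in the Tet tcKO libraries. All Tet tcKO libraries lay below all Cre- libraries, the lowest being the library with the most ribosomal RNA. Its log2FC was -0.62 against Cre- (SE 0.24, adjusted p = 0.15) and -0.36 against tHet (SE 0.24, adjusted p = 0.487), both short of a call. Without CT010467.1 its log2FC against Cre- was -0.46 (adjusted p = 0.108).

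Tbx3 stood at 15.4, 14.3 and 16.7 CPM in Cre- and 10.7, 16.3 and 16.2 in tHet, against 13.6, 16.7 and 8.73 in Tet tcKO. The 3 genotypes overlapped, with 1 low library each in tHet and Tet tcKO. Its log2FC was -0.29 against Cre- (95% interval -0.85 to 0.28) and -0.16 against tHet (-0.73 to 0.40). The antisense Tbx3os1, whose exons overlap, was low throughout, at 0.356 to 2.09 CPM.

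Tbx5, which activates ephrin-B genes dorsally and represses ventral genes, stood at 8.48, 9.54 and 12.4 CPM in Cre- retinas, 6.34, 10.3 and 10.9 in tHet retinas and 18.9, 16.6 and 9.87 in Tet tcKO retinas. Tet tcKO replicates 1 and 2 were above every other library and replicate 3 fell among them. Its log2FC was 0.52 against Cre- (SE 0.30, adjusted p = 0.445) and 0.68 against tHet (SE 0.30, adjusted p = 0.229). Without Tet tcKO replicate 3 the log2FC against Cre- was 0.79.

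The ventral factor Vax2 stood at 8.65, 9.54 and 11.2 CPM in the Cre- libraries, 11.95, 8.0 and 12.9 in the tHet libraries and 10.6, 7.51 and 4.58 in the Tet tcKO libraries. The genotypes overlapped, and the log2FC was -0.42 against Cre- (95% interval -1.06 to 0.22) and -0.55 against tHet (-1.19 to 0.09). The intervals of Tbx3, Tbx5 and Vax2 against Cre- hold 0, and those of Tbx5 and Vax2 also reach past 1 in size. The log2 ratio of Tbx5 to Vax2, which is free of the scaling of a library, was -0.03, 0.00 and 0.15 in Cre- and -0.92, 0.36 and -0.24 in tHet, against 0.83, 1.14 and 1.11 in Tet tcKO. All 3 Tet tcKO libraries lay above the other 6. The same ratio with Tbx2 in place of Tbx5 averaged 2.31 in Cre- retinas, 1.91 in tHet retinas and 2.12 in Tet tcKO retinas, and with Tbx3 it averaged 0.66, 0.40 and 0.81, and in both the genotypes overlapped.

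Vax2os, a non-coding RNA gene on the strand opposite Vax2 within the Vax2 locus, fell where Vax2 did not pass the test. It stood at 28.8, 41.6 and 27.7 CPM in the Cre- libraries, 41.0, 28.4 and 28.1 in the tHet libraries and 2.61, 12.5 and 8.19 in the Tet tcKO libraries. Every other library was higher, and the log2FC was -2.21 against Cre- (adjusted p = 0.000535) and -2.20 against tHet (adjusted p = 0.000622, limma). Its exons do not overlap those of Vax2 in this annotation. Vax2os was named after its values were seen, from a search of all tested genes within 500 kb of each member. The floxed gene Tet3 lies 252 kb from Vax2, so Vax2 and Vax2os are linked to an engineered allele. What this linkage contributes to the fall of Vax2os was not tested.

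Across the 9 members that search covered 87 tested genes, of which 9 were called against Cre- (3.60% of all genes were) and 7 against tHet (3.00%). Against Cre-, apart from Vax2os, near Cyp26a1 these were Rbp4 and Ffar4, near Aldh1a1 Anxa1 and AC158778.1, near Aldh1a3 Pcsk6, and near Ephb2 Tcea3, Epha8 and Asap3. Against tHet they were Vax2os, Anxa1, Rbp4, Ffar4, Tcea3, Epha8 and Lrrk1. Lrrk1, 2.54 kb from Aldh1a3, fell there, from a mean of 7.85 CPM in tHet to 1.73 in Tet tcKO (log2FC -1.99, adjusted p = 0.00234). No tested neighbour of Tbx2, Tbx3, Tbx5 or Efnb2 was called. Ffar4, a fatty acid receptor gene 396 kb from Cyp26a1, had 0, 1 and 3 reads in Cre- and 0, 1 and 1 in tHet, against 93, 68 and 69 in Tet tcKO. Its ratio of pooled read rates, Tet tcKO over Cre-, was 56.2 (95% counting interval 21.7 to 208). Rbp4 and Ffar4 reached the filter level of 0.5 CPM only in Tet tcKO libraries. They could enter the test and these counts only by being higher there. AC158778.1 was also low in the controls, at a mean of 0.041 CPM in Cre- and 0.20 in tHet, against 1.11 in Tet tcKO. Cyp26c1, a second retinoic acid hydroxylase 4.4 kb from Cyp26a1, was low at 0.0675 to 0.589 CPM in Cre- and 0.361 to 1.78 in Tet tcKO, with a log2FC of 0.93 that missed the test (adjusted p = 0.192).

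Of the 3 retinoic acid enzymes among the members, the degrading enzyme was the one called against both controls. Cyp26a1 stood at 1.41, 3.37 and 2.03 CPM in Cre- retinas, 2.38, 0.935 and 2.27 in tHet retinas and 11.8, 13.3 and 10.7 in Tet tcKO retinas. The Tet tcKO libraries were above all others, and the Cre- and tHet libraries overlapped. Its log2FC was 2.22 against Cre- (SE 0.35, adjusted p = 0.000338) and 2.46 against tHet (SE 0.35, adjusted p = 0.000152), and the interval of the difference between tHet and Cre- was -0.97 to 0.50. These values rest on 178 to 202 reads per Tet tcKO library and 9 to 53 in the others. It was called against both controls in all 22 alternatives run, with a log2FC of 1.99 to 2.49 against Cre- and 2.13 to 2.71 against tHet.

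Aldh1a1, the dorsal retinoic acid synthase, stood at 82.8, 49.9 and 74.9 CPM in the Cre- libraries, 58.3, 75.7 and 90.7 in the tHet libraries and 188, 126 and 115 in the Tet tcKO libraries. Again every Tet tcKO library was above every other one, with replicate 1 the highest. Its log2FC was 1.04 against Cre- (SE 0.25, adjusted p = 0.0119) and 0.92 against tHet (SE 0.25, adjusted p = 0.0306). Against Cre- this missed a call on the adjusted p alone. It was called in 7 of 22 alternatives, among them the ones without CT010467.1 (log2FC 1.20, adjusted p = 0.00497), without Cre- replicate 1 and without tHet replicate 3 (adjusted p = 0.00287). Leaving out tHet replicate 3 also gave a call against tHet (log2FC 1.06, adjusted p = 0.00739).

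Aldh1a3, the ventral synthase, was near the limit of detection in Cre- at 0.648, 0.0636 and 0.338 CPM, which are 11, 1 and 5 reads. It reached the filter level of 0.5 CPM in 7 of 9 libraries, with Cre- replicate 1 the only Cre- library among them. Its entry into the test thus rested on the genotypes where it was higher. In tHet Aldh1a3 stood at 0.72, 1.56 and 3.74 CPM and in Tet tcKO at 3.98, 3.95 and 2.77. The Tet tcKO libraries were all above Cre- and overlapped tHet, of which replicate 3 was as high as Tet tcKO. The log2FC was 2.30 against Cre- (SE 0.41, adjusted p = 0.00106), 0.87 against tHet (95% interval 0.01 to 1.73, adjusted p = 0.275) and 1.43 between tHet and Cre- (SE 0.41, adjusted p = 0.51). The ratio of pooled read rates, Tet tcKO over Cre-, was 9.94 (exact 95% interval 6.03 to 17.5, counting error only). The call against Cre- held in 18 of 22 alternatives. It was lost in limma with no filter on low values (adjusted p = 0.0158) and in the edgeR quasi-likelihood test (adjusted p = 0.0132). It was also lost without Tet tcKO replicate 1 (0.0119) or replicate 3 (0.0168).

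Most markers of the ciliary body and iris, tissue that borders the retina, stood higher in the genotypes with more Aldh1a3. Their summed level over 6 genes was 43.1 to 73.2 CPM in Cre- and 180 to 278 in tHet, against 276 to 342 in Tet tcKO. Of the 5 tested, 4 rose in Tet tcKO against Cre-, where 2.03% of all genes did. Between tHet and Cre- 2 of them, Optc and Col9a1, were among the 9 genes called. Optc stood at 7.42, 1.21 and 5.74 CPM in Cre- retinas, 67.1, 42.1 and 98.9 in tHet retinas and 32.9, 84.9 and 34.5 in Tet tcKO retinas, and Zic1 at 4.96 to 6.14, 13.8 to 28.7 and 25.7 to 31.8. Tyr differed from these, at a mean of 4.84, 12.4 and 2.92 CPM in Cre-, tHet and Tet tcKO, and fell against tHet (log2FC -1.90, adjusted p = 0.00893). None of the 6 was at 0 in all libraries, and Msx1 was the lowest, at no more than 0.593 CPM. The summed CPM of 7 pigment epithelium markers was lowest in Tet tcKO. The sum was 52.3 to 209 in the Cre- libraries, 157 to 201 in the tHet libraries and 31.0 to 48.1 in the Tet tcKO libraries. Of these 7 markers, 3 fell against Cre- and 4 against tHet, where 1.57% and 1.61% of all genes did. Tyrp1, Best1 and Pmel had a positive log2FC against Cre- (0.95, 0.31 and 0.17), short of a call. Between tHet and Cre- all markers but Best1 had a positive log2FC, and none was called. How much adjacent tissue contributes to Aldh1a3 was not tested.

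**Figure D3:**
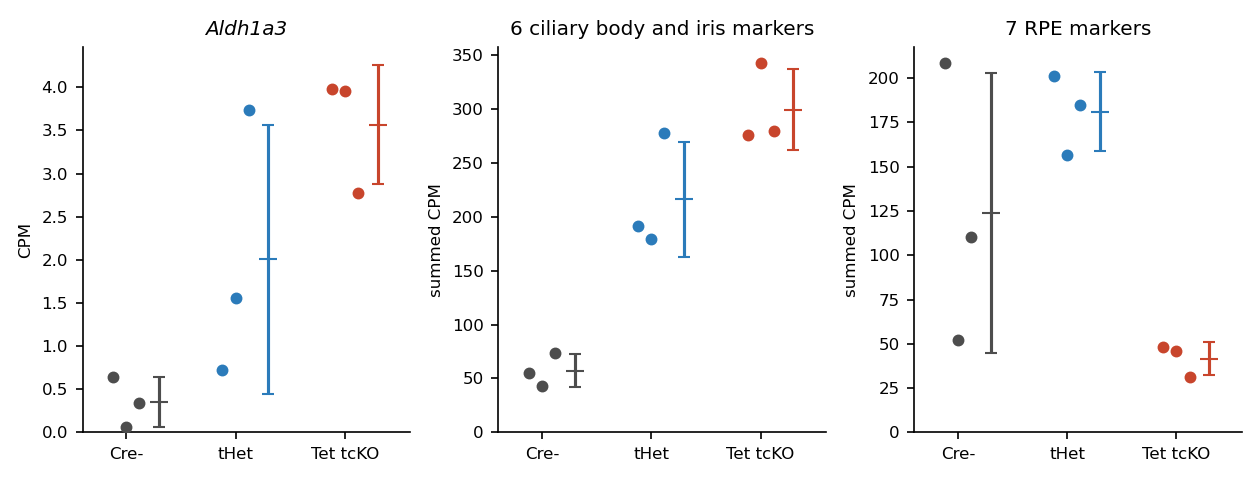
CPM of Aldh1a3 (left), summed CPM of 6 ciliary body and iris markers (middle) and of 7 retinal pigment epithelium (RPE) markers (right), 1 point per library with mean ± SD over 3 libraries and axes from 0. Aldh1a3 and the ciliary body and iris markers are lowest in Cre-, while the pigment epithelium markers are lowest in Tet tcKO.

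The genes most like Aldh1a3 over the 9 libraries, by Pearson r of log2(CPM + 0.5) among tested genes of at least 1 CPM on average, were F11r (r = 0.97), Slc7a11 (0.96), Txnip (0.96), Zic1 (0.96) and Tead2 (0.95). Zic1 is 1 of the 6 ciliary body and iris markers. All 5 had their lowest mean in Cre- and their highest in Tet tcKO, as in Slc7a11 at 3.99, 8.66 and 14.2 CPM. The points share library depth and genotype, and r over 9 libraries is a description.

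The log2 ratio of Aldh1a1 to Aldh1a3 was 7.0, 9.62 and 7.79 in Cre- and 6.34, 5.60 and 4.60 in tHet, against 5.56, 4.99 and 5.37 in Tet tcKO. Cre- libraries all lay above the other 6, and tHet and Tet tcKO overlapped. The value of 9.62 rests on the single Aldh1a3 read of Cre- replicate 2.

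The wider retinoic acid pathway was read from 18 other genes, of which 17 were tested. Of these, 3 rose in Tet tcKO against Cre- (Rbp4, Rxrg and Rdh1), where 2.03% of all genes did. Against tHet 2 rose (Rbp4 and Rxrg), where 1.39% of all genes did. None fell in either (1.57% and 1.61% of all genes did). The medians of log2FC over the 17 were 0.71 and 0.69, beside 0.001 and -0.06 over all genes. Rbp4, which encodes the plasma carrier of retinol, had 1 or 2 reads in each Cre- library (4 in all) and 7 over the tHet libraries. In Tet tcKO it stood at 9.92, 8.83 and 4.94 CPM (383 reads), a ratio of pooled read rates over Cre- of 93.6 (95% counting interval 36.2 to 345). Rbp4 lies 415 kb from Cyp26a1. It reached the filter level of 0.5 CPM only in Tet tcKO libraries, so it could enter the test and these counts only by being higher there. Rdh1, a retinol dehydrogenase gene, stood at 0.53, 0.70 and 0.54 CPM in Cre- retinas, 1.08, 1.35 and 0.805 in tHet retinas and 3.38, 2.77 and 2.35 in Tet tcKO retinas. Its log2FC was 1.60 against Cre- (adjusted p = 0.00261) and 1.08 against tHet (adjusted p = 0.0476).

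Other steps of the pathway did not pass the test. Rdh10, which makes retinaldehyde, had a log2FC of 0.88 against Cre- (adjusted p = 0.0246), and Dhrs3, which converts retinaldehyde back to retinol, had -0.41 (adjusted p = 0.383). Aldh1a2, the third retinaldehyde dehydrogenase, was at 0.10 ± 0.06 CPM in Cre- and 0.24 ± 0.15 in Tet tcKO (SD, n = 3) and was too low to test. The other hydroxylase Cyp26b1 stood at 1.5 ± 0.431 CPM in the Cre- libraries, 1.49 ± 0.151 in the tHet libraries and 3.72 ± 1.48 in the Tet tcKO libraries, with a log2FC of 1.04 against Cre- (adjusted p = 0.0768). Among receptors, Rarb had a log2FC of 1.17 against Cre- (adjusted p = 0.0191) and 0.71 against tHet (adjusted p = 0.203), while Rara, Rxra and Rxrb lay between -0.25 and 0.06 against Cre-.

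**Figure D4:**
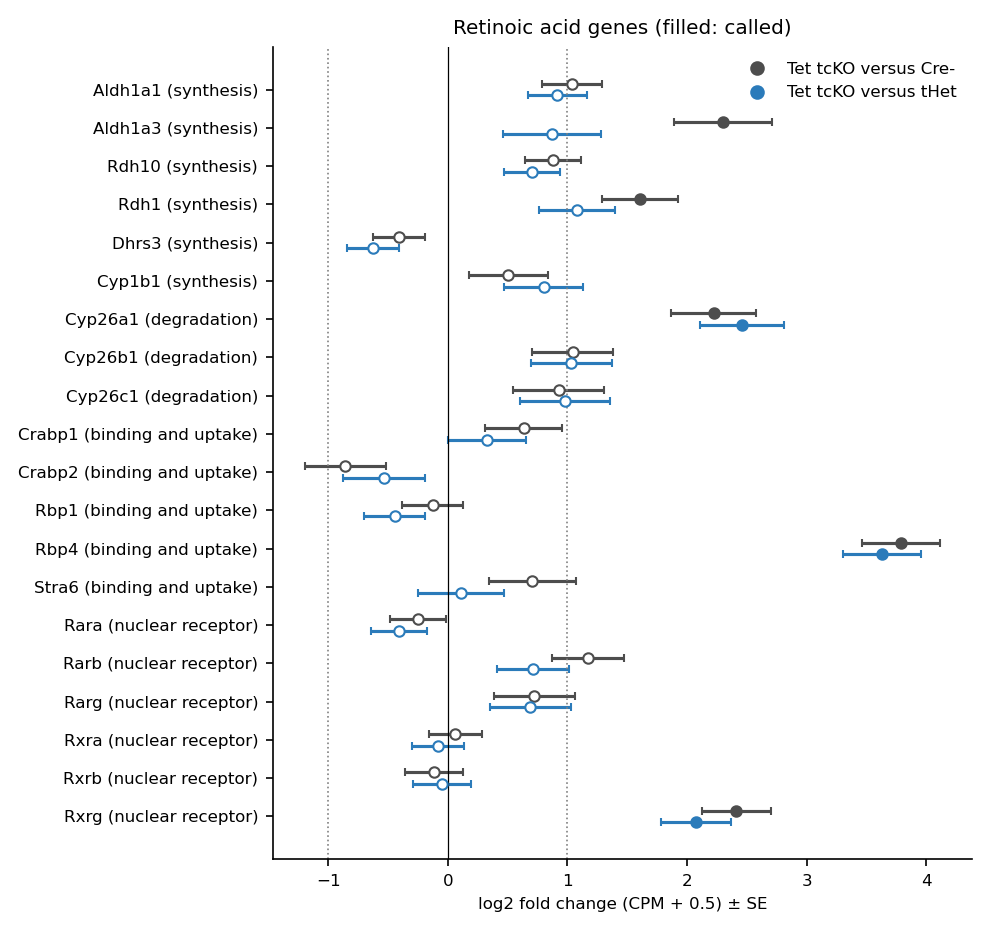
Horizontal axis: log2 fold change of CPM + 0.5 ± SE for the 3 retinoic acid members and the 17 tested genes of the pathway list, grouped by role, for Tet tcKO versus Cre- (grey) and versus tHet (blue); filled points were called. Cyp26a1, Rbp4 and Rxrg are filled in both comparisons, Aldh1a3 and Rdh1 against Cre- alone, and no gene is filled to the left of 0.

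The ephrin ligand and its receptor, which mark opposite poles, stood higher together. Efnb2 was at 46.4, 39.8 and 48.0 CPM in Cre- and 32.5, 48.8 and 55.2 in tHet, against 89.7, 87.6 and 67.3 in Tet tcKO. Every Tet tcKO library was above the other 6, with a log2FC of 0.85 against Cre- (SE 0.23, adjusted p = 0.0265) and 0.86 against tHet (SE 0.23, adjusted p = 0.0275). Without tHet replicate 3 it was called against tHet (log2FC 1.01, adjusted p = 0.00736). Ephb2 was at 37.2, 36.9 and 39.4 CPM in Cre- retinas, 37.2, 55.5 and 38.4 in tHet retinas and 82.2, 78.2 and 53.9 in Tet tcKO retinas. All Tet tcKO libraries were above Cre-, and Tet tcKO replicate 3 was just under tHet replicate 2. The log2FC of Ephb2 was 0.89 against Cre- (SE 0.23, adjusted p = 0.0193) and 0.70 against tHet (SE 0.23, adjusted p = 0.0774).

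The log2 ratio of Efnb2 to Ephb2, ligand over receptor, was 0.24 ± 0.11 in the Cre- libraries, 0.05 ± 0.41 in the tHet libraries and 0.20 ± 0.10 in the Tet tcKO libraries (SD, n = 3), and the genotypes overlapped. Without CT010467.1 both genes were called against Cre-, at a log2FC of 1.01 for Efnb2 (adjusted p = 0.00448) and 1.05 for Ephb2 (adjusted p = 0.0012). Without Tet tcKO replicate 3, the library that CT010467.1 dilutes most, the values were 0.98 and 1.07, and Ephb2 was called. Of the 6 other EphB and ephrin-B genes, none was called against Cre- (3.60% of all genes were). Against tHet 1, Efnb3, rose (1.39% of all genes did). Efnb3 stood at 9.54, 6.04 and 8.37 CPM in Cre- and 5.62, 7.79 and 6.87 in tHet, against 26.9, 14.0 and 14.1 in Tet tcKO, with a log2FC of 1.32 against tHet (adjusted p = 0.00891) and 1.10 against Cre- (adjusted p = 0.0275). Ephb3, a second ventral receptor, had a log2FC of 0.68 against Cre- (adjusted p = 0.222) and Efnb1, a second dorsal ligand, 0.31 (adjusted p = 0.74). The 6 had median log2FC values of 0.49 and 0.54, beside 0.001 and -0.06 over all genes.

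Among 11 other genes of the dorsoventral axis, 10 were tested and 1, Nr2f1, was called in each Tet tcKO comparison. Of all genes, 3.60% were called against Cre- and 3.00% against tHet. Nr2f1 encodes the ventrally enriched orphan receptor COUP-TFI. It stood at 15.4, 14.4 and 16.5 CPM in Cre- retinas, 13.9, 13.6 and 22.3 in tHet retinas and 44.6, 40.8 and 32.1 in Tet tcKO retinas, and its log2FC was 1.31 against Cre- (adjusted p = 0.00165) and 1.24 against tHet (adjusted p = 0.00292). Its dorsal counterpart Nr2f2 had a log2FC of 0.61 and 0.56 (adjusted p = 0.16 and 0.206). The dorsal genes Bambi and Gdf6 stood about as much higher against Cre- as Nr2f1, at 1.34 (adjusted p = 0.0109) and 1.30 (adjusted p = 0.0315), short of a call. The ventral gene Smoc1 stood lower, at -1.08 (adjusted p = 0.029). Of the 10 tested, 9 had a positive log2FC against Cre-. Bmp4, the dorsal signal, stood at 1.48 ± 0.559 CPM in the Cre- libraries, 2.99 ± 0.723 in the tHet libraries and 2.19 ± 0.954 in the Tet tcKO libraries, and did not pass the test. Vax1, the ventral partner of Vax2, was too low to test, at 0.26 ± 0.27 CPM in Tet tcKO. The medians of the 10 were 0.52 and 0.57, beside 0.001 and -0.06 over all genes.

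The cone opsins, which are graded along the same axis in the adult mouse, split. The paper reports that photoreceptors of Tet tcKO retinas take a cone fate in place of the rod fate. How far the opsin levels follow position in such retinas was not tested. Opn1sw stood at 127, 130 and 91.5 CPM in Cre- and 95.6, 125 and 80.8 in tHet, against 521, 295 and 265 in Tet tcKO, with every Tet tcKO library above the other 6. Its log2FC was 1.58 against Cre- (SE 0.26, adjusted p = 0.000461) and 1.80 against tHet (SE 0.26, adjusted p = 0.000155). Opn1mw stood at 35.7, 35.2 and 36.5 CPM in Cre- retinas, 43.8, 66.9 and 30.4 in tHet retinas and 27.4, 53.4 and 27.2 in Tet tcKO retinas, and the genotypes overlapped. Its log2FC was -0.07 against Cre- (95% interval -0.66 to 0.52) and -0.38 against tHet (-0.97 to 0.21), and the first turned to 0.09 without CT010467.1. Calu, whose exons overlap Opn1sw, stood at 115 to 138 CPM in Cre- and 176 to 263 in Tet tcKO, a log2FC of 0.71 that missed the test (adjusted p = 0.0633).

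The log2 ratio of Opn1sw to Opn1mw was 1.83, 1.88 and 1.33 in the Cre- libraries, 1.13, 0.90 and 1.41 in the tHet libraries and 4.25, 2.47 and 3.29 in the Tet tcKO libraries. The lowest of the Tet tcKO libraries lay above the highest of the rest. The mean was 1.68 ± 0.31 in Cre- and 1.15 ± 0.26 in tHet, against 3.33 ± 0.89 in Tet tcKO (SD, n = 3). Tet tcKO differed from Cre- by 1.65, with p = 0.1 in an exact two-sided permutation test. Against tHet the difference was 2.19 (p = 0.1, exact), and between tHet and Cre- it was -0.54 (p = 0.2, exact). With 3 libraries against 3, 0.1 is the smallest p this test can give, so the design cannot reach 0.05.

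General cone genes rose beside Opn1sw. The summed CPM of 6 other cone markers was 371 to 466 in Cre- retinas, 464 to 482 in tHet retinas and 1443 to 2138 in Tet tcKO retinas. Of the 6, 5 rose against each control, where 2.03% (Cre-) and 1.39% (tHet) of all genes did. Per unit of that sum, Opn1sw was 0.287 ± 0.0522 in the Cre- libraries, 0.213 ± 0.0487 in the tHet libraries and 0.193 ± 0.0469 in the Tet tcKO libraries. Opn1mw was 0.0892 ± 0.0118, 0.0996 ± 0.0394 and 0.0197 ± 0.00731, and here every Tet tcKO library (0.0128 to 0.0274) was below every other (0.063 to 0.141). Cngb3, a cone channel subunit, took much of the sum in Tet tcKO, at 671 to 1110 CPM against 60.5 to 77.1 in Cre-. Without Cngb3 the order of Opn1sw turned, at 0.348 ± 0.0569 in Cre- and 0.261 ± 0.0691 in tHet, against 0.382 ± 0.111 in Tet tcKO, and the genotypes overlapped. Opn1mw over the same 5 markers was 0.0267 to 0.0533 in Tet tcKO, still below every other library (0.0741 to 0.179). The sum without Cngb3 was chosen after seeing the data.

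Regulators of the opsins moved in part. Of 7 in the list, 2 rose in both Tet tcKO comparisons, Rxrg and Nr2f1, where 2.03% of all genes rose against Cre- and 1.39% against tHet. Rxrg, a retinoid receptor of cones that restrains short wave opsin, stood at 8.65, 5.98 and 7.49 CPM in Cre- and 6.62, 11.1 and 11.04 in tHet, against 59.1, 41.0 and 28.5 in Tet tcKO. Its log2FC was 2.41 (adjusted p = 1.79e-05) and 2.08 (adjusted p = 0.000119). Thrb, the thyroid hormone receptor needed for medium wave opsin, had a log2FC of 0.31 against Cre- (adjusted p = 0.66) and 0.22 against tHet (adjusted p = 0.734).

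**Figure D5:**
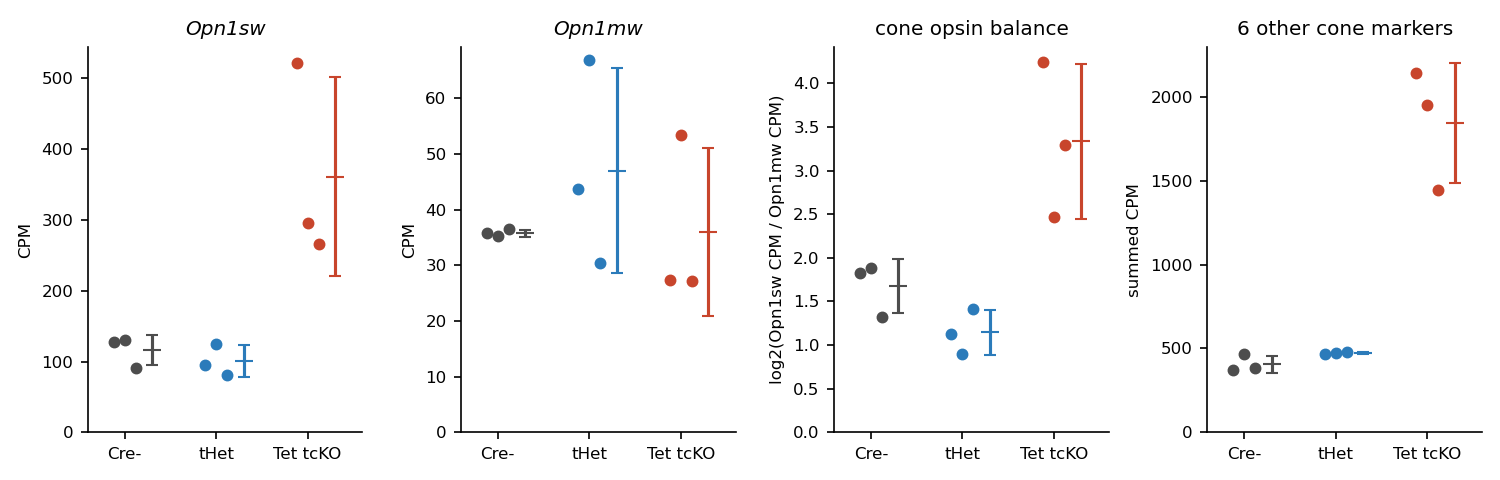
From left to right: CPM of Opn1sw, CPM of Opn1mw, the log2 ratio of Opn1sw to Opn1mw CPM, and summed CPM of 6 other cone markers, with 1 point per library, mean ± SD of 3 libraries and axes from 0. Opn1sw, the ratio and the cone markers are highest in the 3 Tet tcKO libraries, and Opn1mw overlaps between genotypes.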

How the data were processed

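Total RNA of P21 whole retinas, depleted of ribosomal RNA, was sequenced as stranded libraries (3 genotypes, 3 libraries each, 2 animals pooled per library). The authors aligned reads to mm10 and counted them per gene. The submitters' processing notes name Trim Galore 0.6.7, STAR 2.7.0f, SAMtools 1.9, HTSeq 0.11.2 and edgeR 4.2.2. The annotation release and strand setting are not given in the sources used here. The deposited table holds CPM (read counts per 1000000 reads on genes) per library, without scaling factors. Its fold change, p-value and group mean columns were not used. Every value was a whole multiple of the CPM of 1 read (within 0.1 read), so reads were recovered for the count tests.

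The 21330 genes that reached 0.5 CPM in 3 or more libraries were tested in limma 3.58.1 (R 4.3.3) on log2(CPM + 0.5), with 1 mean per genotype over all 9 libraries, a variance trend and Benjamini-Hochberg adjustment. Fitting all genotypes together lets them share 1 estimate of the spread. Alternatives were other pseudocounts, filters, scalings, thresholds and libraries, edgeR 4.0.16 and DESeq2 1.42.0. On simulated data for Tet tcKO versus Cre- (20964 genes, 200 of them changed by a log2FC of 2) limma recovered 196 with 1 false call. The simulation used the same dispersion for every gene and changed only genes of at least 1 CPM on average. It does not give the recovery for genes near 0, such as Aldh1a3, or for changes near the threshold. p-values measure the spread between these pooled libraries. No 2 libraries agreed within sampling noise.

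CPM per kb divides by the union of exons in GENCODE M21, and 54349 of 55487 gene IDs matched that release. The 3 reads of a detection floor correspond to 0.142 to 0.312 CPM. Intervals on reads cover counting error only. The text names all members, both opsins, every gene of the related lists that was called, and the genes nearest in pattern to the member with the largest called rise. Members and gene lists were chosen with earlier results of these data known.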

Additional observations from a re-analysis of the deposited data

How the results depend on the processing

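Of the 9 members, 2 were called against Cre-, 1 against tHet and 0 between tHet and Cre- in limma. The first count became 1 with no filter on low values and in the edgeR quasi-likelihood test on recovered reads, 5 with CPM recomputed without CT010467.1, and 1 to 3 when 1 library was left out. The second became 2 without CT010467.1 and 1 to 3 with a library left out. Without tHet replicate 3 it was 3, and without Tet tcKO replicate 1 the first was 1. CT010467.1 raises the read total that CPM is divided by in Tet tcKO replicate 3, so dropping it raises that library's other values. With the replicate number as a block (replicate block), 3, 1 and 0 members were called, and the opsin balance differences stayed at 1.65, 2.19 and -0.54. Libraries of the same number correlated at a mean r of 0.11 after genotype means were removed (9 pairs, -0.35 to 0.56). Those of different numbers correlated at a mean r of -0.05 (18 pairs, -0.57 to 0.50). The ranges overlap, so they cannot settle whether the numbers pair the samples. Over all genes the block moved the calls from 768, 640 and 9 to 1127, 1125 and 40, DESeq2 to 1145, 1046 and 40, and no filter to 417, 351 and 1. Signs turned only for uncalled values: without CT010467.1, Opn1mw against Cre- became 0.094 and Efnb2 between tHet and Cre- 0.012. With 1 library left out, Opn1mw against Cre- ranged from -0.385 to 0.096 and Tbx3 against tHet from -0.361 to 0.087. Between tHet and Cre- those ranges were -0.221 to 0.07 for Tbx3, -0.293 to 0.078 for Tbx5, -0.094 to 0.291 for Aldh1a1, -0.472 to 0.09 for Cyp26a1, -0.162 to 0.216 for Efnb2 and -0.002 to 0.284 for Ephb2. Aldh1a3 in Cre- rests on 17 reads, so counting error limits its fold change.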

Other observations

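Of 14 further T-box genes, 6 were tested, none was called in any comparison by limma, and their median log2FC was 0.06 against Cre- and -0.03 against tHet. Over all genes 3.60% and 3.00% were called in these 2 comparisons, with medians of 0.001 and -0.06. Mga, a broadly expressed member of the family, was at 332 ± 48.9 CPM in Cre- retinas, 352 ± 64.4 in tHet retinas and 312 ± 58.2 in Tet tcKO retinas (SD, n = 3). Eomes, which marks a subset of ganglion cells, was at 8.70 ± 2.31, 9.67 ± 1.10 and 8.80 ± 2.34 CPM.

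On the second axis of the retina, from nasal to temporal, 13 of 17 genes were tested. Where 3.60% of all genes were called against Cre- and 3.00% against tHet, 1 of the 13 was, Epha8. This receptor gene lies 93.4 kb from Ephb2 and stood at 22.8, 19.98 and 20.4 CPM in the Cre- libraries, 14.3, 21.6 and 18.5 in the tHet libraries and 75.3, 50.8 and 41.1 in the Tet tcKO libraries. All Tet tcKO libraries were above the others, with a log2FC of 1.34 against Cre- (adjusted p = 0.00147) and 1.57 against tHet (adjusted p = 0.000391, limma). Epha5, a temporal guidance receptor, was at 131 ± 7.10, 132 ± 19.6 and 202 ± 48.5 CPM and missed the test (adjusted p = 0.143 against Cre-). The 13 genes had medians of 0.42 and 0.48 against Cre- and tHet, beside 0.001 and -0.06 over all genes.

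Tcea3, a transcription elongation factor gene 373 kb from Ephb2 that was named after its values were seen, stood at 1.53, 2.29 and 1.35 CPM in Cre- and 2.30, 0.935 and 3.65 in tHet, against 31.5, 25.6 and 21.7 in Tet tcKO. Anxa1, 102 kb from Aldh1a1 and named in the same way, went the other way, at 17.5, 13.7 and 14.8 CPM in Cre- and 2.08, 5.34 and 5.54 in Tet tcKO.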
